A study of Mus musculus with 2 samples.

Results

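A set of 10 genes of 4 kinds was followed through the immune cells of the gastric mucosa: the galectins Lgals1, Lgals3 and Lgals7, the S100 genes S100a4, S100a6, S100a10 and S100a11, the annexins Anxa1 and Anxa2, and vimentin (Vim). They were taken as a list by gene symbol, and all 10 of 10 were among the 31053 genes counted in both single-cell libraries. The mice were TxA23, a line with a transgenic T cell receptor against a stomach antigen that develops chronic autoimmune gastritis, and both groups carried the transgene. The mice were given pumps under the skin when they were 3 months old, and the pumps ran for 4 weeks. The IL-27 group, 3 females, received 800 ng of recombinant interleukin 27 in 200 µL (4 µg/mL), and the sham group, 1 male and 1 female, received PBS. Live CD45+ cells were sorted from the mucosa and sequenced with the 5' chemistry of 10x Genomics. They were deposited as 1 matrix per treatment, called a library here, so the mice of a group share a matrix.

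Galectins are secreted lectins that bind sugars on cell surfaces, and galectin-1 in particular is known to be made by activated and regulatory T cells. Most S100 proteins are small calcium sensors. Several S100 proteins pair with annexins, the calcium-dependent membrane binders. S100A10 sits in a complex with annexin A2 at the membrane, and S100A11 binds annexin A1. Vimentin forms the intermediate filaments of leukocytes. Several of these genes are widely used as markers of antigen-experienced T cells.

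Cell barcodes carry a suffix for the well they came from, 3 wells with IL-27 and 2 with PBS, and PBS well 2 alone held UMIs of Y-linked genes (3138). The labels do not say that a well is a mouse, so p-values here measure only the spread between wells. After filtering, 31665 of 33173 barcodes were kept, with median depths of 2747 to 3161.5 UMIs per cell in the 5 wells, and 13935 cells (44.0%) entered 1 of 18 subsets gated on raw UMIs of marker genes that excluded the 10 genes. PBS well 2 stood apart in makeup: it held 2 naive CD4 T cells against 57 to 99 in the other wells, 183 effector CD8 T cells against 13 to 35, and 79 of 86 mast cells. The libraries shared 355 barcode sequences, and any pair of wells 46 to 71. Ncr1 stood at 1923 CPM (UMIs of the gene per 1000000 UMIs of the subset) in the NK gate, Foxp3 at 433 in the regulatory T gate and S100a8 at 23191 in the neutrophil gate. T-cell genes Cd3d, Cd3e and Cd3g were at 0 by the gate in NK cells, which may hold ILC1 as well, since the 2 share these markers.

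The 4 S100 genes lie on chromosome 3 of GRCm38, S100a4 at 90603771 to 90606045 and S100a6 at 90612882 to 90624181 as near neighbours, and S100a11 at 93520488 to 93526287 beside S100a10 at 93555080 to 93564643, all on the plus strand. The sequences before S100a4, S100a6 and S100a11 are shown because these 3 genes had the largest pooled folds between effector and naive CD4 T cells of the genes for which a promoter entry was matched and ended before the annotated gene (RefSeq, GRCm38.p6, plus strand). Capitals mark the TATA box letters TATAAA, the AP-1 letters TGANTCA and the GC box letters GGGCGG, searched on both strands.
S100a4 (chr3:90603520-90603769): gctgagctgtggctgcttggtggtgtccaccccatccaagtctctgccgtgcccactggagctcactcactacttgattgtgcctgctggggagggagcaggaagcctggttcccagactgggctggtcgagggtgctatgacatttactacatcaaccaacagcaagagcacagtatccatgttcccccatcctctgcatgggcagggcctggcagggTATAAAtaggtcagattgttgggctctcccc
S100a6 (chr3:90612644-90612881): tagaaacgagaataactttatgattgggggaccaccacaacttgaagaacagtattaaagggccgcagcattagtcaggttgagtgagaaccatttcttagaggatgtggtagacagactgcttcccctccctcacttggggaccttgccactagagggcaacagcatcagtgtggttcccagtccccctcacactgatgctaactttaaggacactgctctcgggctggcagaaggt
S100a11 (chr3:93520246-93520487): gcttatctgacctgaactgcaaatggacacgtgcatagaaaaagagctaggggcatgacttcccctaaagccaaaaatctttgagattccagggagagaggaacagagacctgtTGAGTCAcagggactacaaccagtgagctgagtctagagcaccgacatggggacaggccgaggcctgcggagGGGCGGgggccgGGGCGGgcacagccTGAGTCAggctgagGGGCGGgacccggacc
The 3 sequences share none of the searched motifs. S100a4 holds TATAAA at 31 to 26 bases before the RefSeq start, S100a11 holds 2 TGANTCA and 3 GGGCGG, and S100a6 holds none of them. Of 32851 windows from 250 bases before to 50 after a start, 12.4% held TATAAA, 6.75% TGANTCA and 32.7% GGGCGG. A match is a string of letters and was not tested as a binding site.

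**Figure D1:**
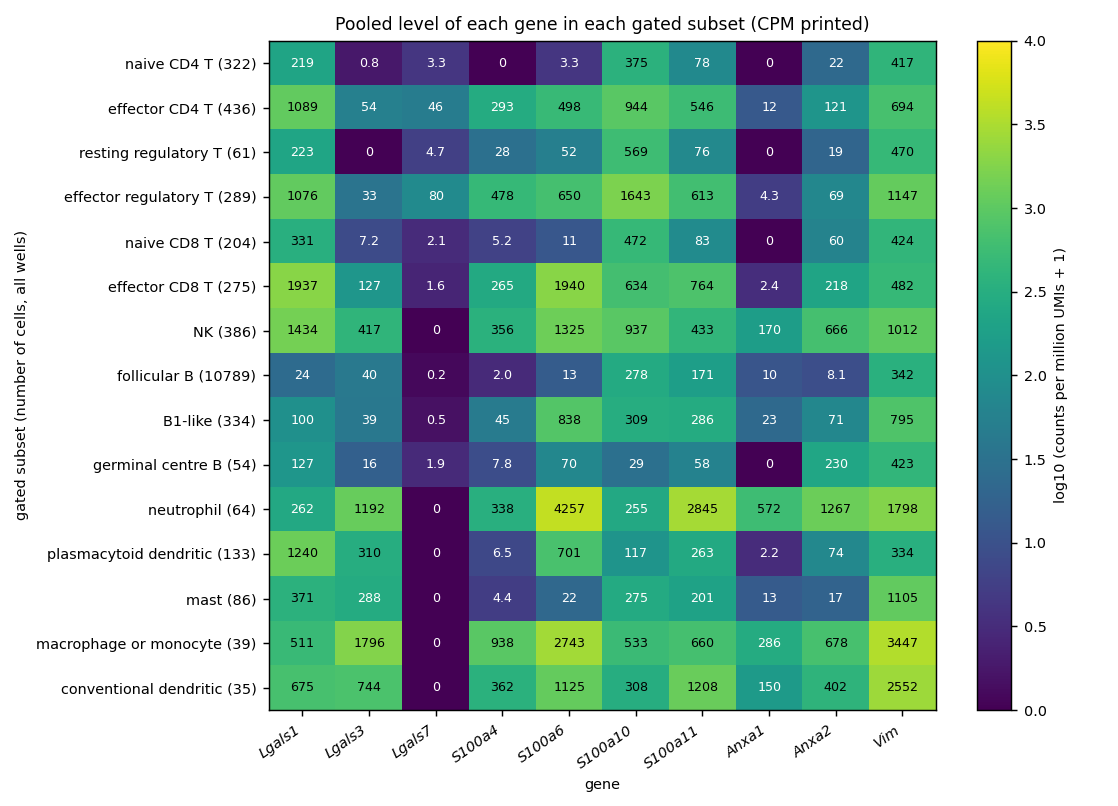
Pooled level of each gene (columns) in 15 gated subsets (rows, with the number of cells), as CPM printed in each cell and log10 (CPM + 1) in colour. Naive T and follicular B rows are dark for most genes, and S100a4 is at 0 in naive CD4 T cells. Lgals7 is above 10 CPM in effector CD4 T and effector regulatory T cells and under 5 CPM in the other rows. The macrophage and conventional dendritic rows rest on 39 and 35 cells.

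Conventional CD4 T cells were 2455, of which 322 met the naive gate (at least 2 UMIs of naive-state genes that include Ccr7 and Lef1 and no activation gene) and 436 the effector gate (at least 2 UMIs of activation genes such as Cd44, Icos, Pdcd1 and Cxcr6, and none of the naive genes). The other 1697 met neither. The gates chose cells by activation, so the comparison describes what the 10 genes do along that axis. All 9 of the genes that could be tested were higher in effector than in naive cells over 4 wells, against 6.7% of 5508 genes called higher (edgeR's quasi-likelihood test with the well as a block, Benjamini-Hochberg adjusted p of 0.05). Lgals3, Lgals7, S100a4, S100a6 and Anxa2 had few or no UMIs in naive cells and passed the filter on low counts only through the effector cells. The count, and the calls of these genes, are therefore not evidence. PBS well 2 had too few naive cells and is not in this fit.

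Galectin-1, Lgals1, was at 208, 188 and 182 CPM in naive cells of IL-27 wells 1 to 3 and at 336 in PBS well 1. In effector cells of the same wells it was at 623, 945, 1389 and 634. The effector wells lay above every naive well, 4.19-fold over the pooled cells (95% interval 3.67 to 4.81) and 1.82 ± 0.18 on the log2 scale (fit ± SE, adjusted p = 1.97e-09, higher in 4 of 4 wells). Galectin-3, Lgals3, gave 1 UMI in all naive cells of the 4 wells and 53 in effector cells. Its effector levels were 25.9, 62.5, 38.8 and 22.8 CPM, a pooled ratio of 45.6 with a wide interval (7.84 to 1835).

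Galectin-7, Lgals7, is known from stratified epithelia. Its effector CD4 T levels were 0, 2.84, 33.6 and 72.2 CPM in IL-27 wells 1 to 3 and PBS well 1, and 159 CPM in PBS well 2. The wells spread from none to over 100 CPM, and the UMIs sat in few cells: the 19 UMIs of PBS well 1 came from 3 of 70 cells and the 44 of PBS well 2 from 7 of 77. Its adjusted p was the largest of the 9 (log2 2.48 ± 0.83, adjusted p = 0.0416, higher in 2 of 4 wells) and was lost without IL-27 well 1 (adjusted p = 0.0575) and by DESeq2 (0.799). The squamous epithelial genes Krt5, Krt14, Krt13, Krt4, Sprr3 and Trp63 were at 0 in effector CD4 T cells of all wells, and Dsp had 2 UMIs in all. Lgals7 overlaps Gm10648 on the other strand, which is counted as a gene of its own, as are 1500015L24Rik opposite Anxa1 and Gm16144 opposite Anxa2. The strand setting of the counting is not given in the sources used here, so levels of these genes are uncertain to that extent.

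S100a4, also called fibroblast-specific protein, is a calcium sensor that binds myosin. It had 0 UMIs in naive CD4 T cells of the 4 wells, which allows up to 2.51 CPM (3 UMIs over the group). Effector cells held 187, 207, 274 and 281 CPM in the same wells and 587 in PBS well 2, with a UMI in 18.3% to 35.1% of the cells of a well. Against the floor the pooled level was at least 93.2-fold higher. S100a4 overlaps Gm42674 on the same strand, so its reads may be split or shared with that model.

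S100a6, or calcyclin, followed the same order with 7.31, 2.65, 0 and 0 CPM in naive cells and 257, 443, 473 and 205 in effector cells. The pooled ratio was 141 with an interval of 48.0 to 687, since naive cells held 3 UMIs. S100a11, a binder of annexin A1, was at 62.1, 50.3, 98.7 and 109 CPM in naive cells and at 529, 579, 468 and 471 in effector cells (log2 2.57 ± 0.18, adjusted p = 6.65e-13). S100a10 had the smallest S100 difference. It was already at 402, 276, 392 and 467 CPM in naive cells and reached 957, 852, 1055 and 809 in effector cells, 2.50-fold over pooled cells (interval 2.24 to 2.79) and higher in 4 of 4 wells (adjusted p = 5.45e-09).

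Anxa2, the membrane partner of S100A10, was at 25.6, 15.9, 12.7 and 43.7 CPM in naive and at 83.0, 111, 134 and 106 in effector cells (log2 2.10 ± 0.28). Anxa1, an anti-inflammatory annexin, was too rare for the test. It had 0 UMIs in naive cells and 15 in effector cells of the 4 wells, at least 4.30-fold higher against the floor of 3 UMIs. Vim had the smallest log2 difference of the 9, from 500.4, 416, 303 and 471 CPM to 651, 670.1, 812 and 456. PBS well 1 went the other way, and the call (log2 0.47 ± 0.15, adjusted p = 0.0237) was lost without IL-27 well 2 (adjusted p = 0.196), without IL-27 well 3 (0.417) and by DESeq2 (0.763, at a like log2 difference of 0.47).

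Cells that met neither gate lay between the poles for Lgals1, S100a6, S100a4 and S100a11. Pooled over wells, Lgals1 was at 507 CPM there (219 naive, 1089 effector), S100a6 at 88.8 (3.33 and 498), S100a4 at 56.4 (0 and 293) and S100a11 at 191 (78.2 and 546). These are levels of 1697 cells of mixed activation state. The share of cells with a UMI was also compared at equal depth: with every cell thinned to 1000 UMIs (3 naive and 11 effector cells were shallower), S100a6 was seen in 0.313% of naive and 17.2% of effector cells, and Lgals1 in 16.6% and 31.1%. Unthinned, S100a6 was in 1.24% and 28.2%. Vim was level after thinning, at 24.5% of naive (95% interval 19.8 to 29.5) and 26.8% of effector cells (22.7 to 31.3), and unthinned it was in 52.5% of naive and 45.4% of effector cells. Follicular B cells, at 0.972% for thinned S100a6, give a level in cells of another lineage for comparison.

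**Figure D2:**
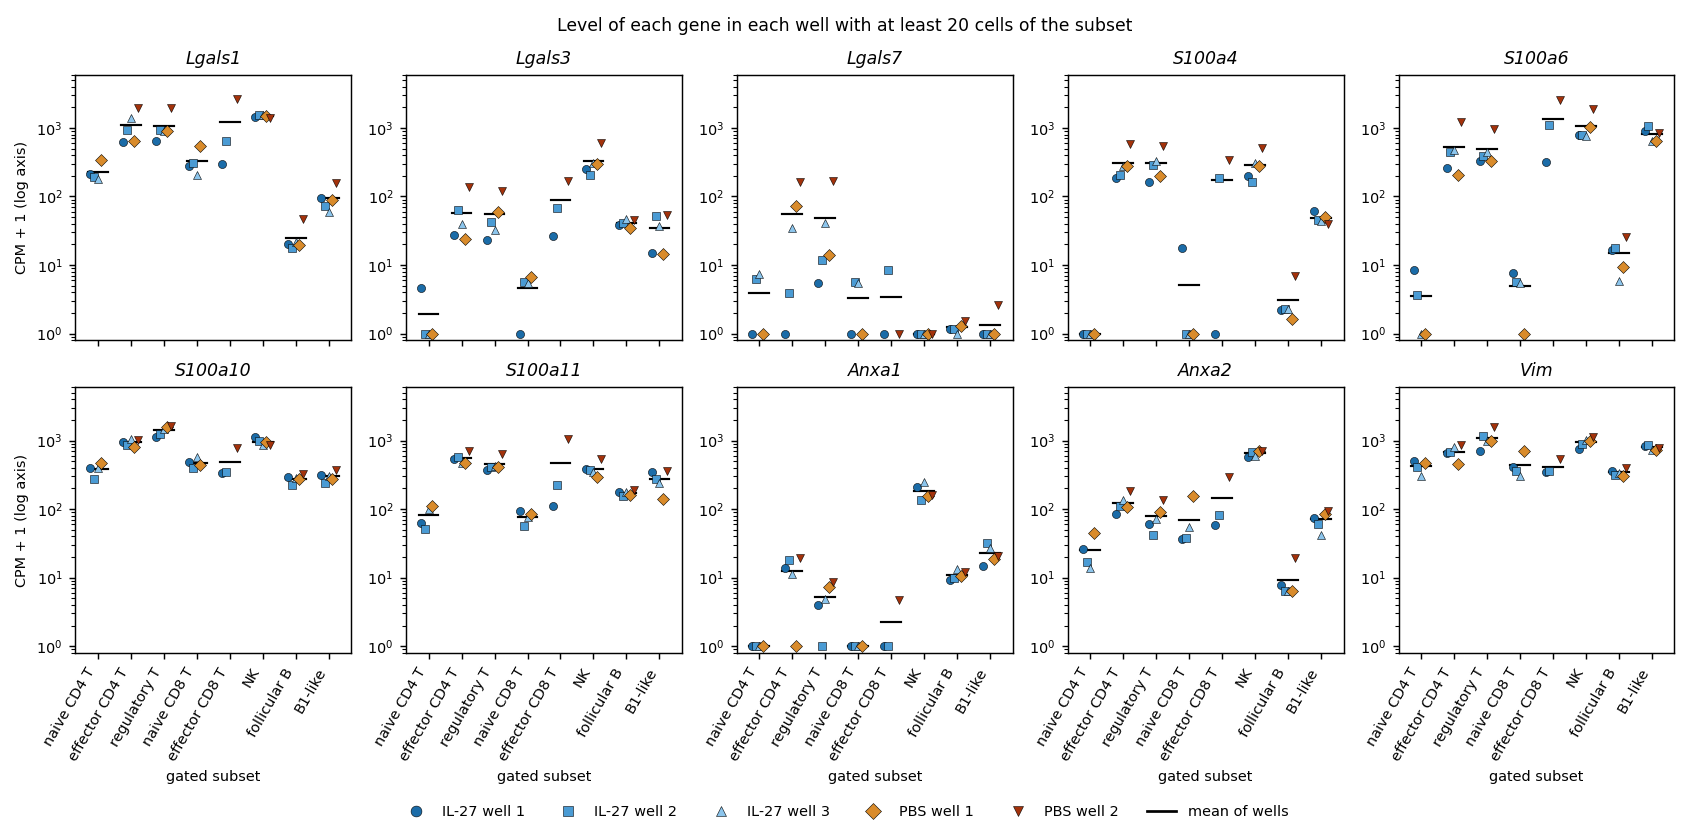
Level of each gene (CPM + 1, log axis) in 8 gated subsets, 1 point per well with at least 20 cells of the subset and a bar at the mean of wells. Effector CD4 T points lie above naive CD4 T points for S100a4, S100a6 and S100a11 in every well, and PBS well 2 (dark triangles) is the highest point of many T-cell columns.

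Related genes were taken from 2 fixed lists. Of 26 other galectin, S100 and annexin genes, 7 were tested in effector against naive CD4 T cells and 1 was called, S100a13 (log2 0.89 ± 0.16, adjusted p = 0.000115 by edgeR). Of 36 partners, receptors and cytoskeletal genes, 28 were tested, of which 8 rose and 4 fell, where 7.08% of all genes were called lower. The riser of largest difference was Myo1f, a myosin of leukocytes (log2 4.20 ± 0.68), followed by the integrin subunit Itgb1 (3.44 ± 0.29) and Ahnak, the giant scaffold that binds the S100A10 and annexin A2 complex (2.36 ± 0.19). S1pr1, the receptor for exit from lymphoid organs, fell by 2.07 ± 0.16 and its regulator Klf2 fell by 1.69 ± 0.13. Tmsb10 and Coro1a also fell.

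Regulatory T cells, gated on Foxp3, were compared first with naive and then with effector CD4 T cells. Against naive CD4 T cells, 8 of the 8 genes tested were higher over 4 wells, with 8.63% of 6223 genes called higher. Naive cells of these wells held 0 UMIs of S100a4, 1 of Lgals3 and 3 of S100a6, so these genes entered through the regulatory T cells and this count, too, is not evidence. S100a10 was at 1121, 1250.2, 1494 and 1571 CPM in IL-27 wells 1 to 3 and PBS well 1, 3.64-fold above the naive cells (interval 3.29 to 4.02, adjusted p = 1.51e-13). Every regulatory T well was above every naive well. Lgals1 gave 633, 927, 896 and 896 CPM (log2 1.80 ± 0.13, adjusted p = 1.09e-11). S100a4 was at least 99.0-fold higher against the floor of 3 UMIs, and Vim, at 697, 1163, 990 and 998 CPM, was 2.29-fold higher (interval 2.08 to 2.52, adjusted p = 2.04e-07).

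Compared directly over 5 wells, regulatory and effector CD4 T cells differed in 3 of 9 tested genes, 2 higher and 1 lower, where 3.75% of 6272 genes were called higher and 2.63% lower. S100a10 was 1121 to 1630 CPM in regulatory T cells and 809 to 1055 in effector cells, groups that did not overlap (log2 0.61 ± 0.08, adjusted p = 1.93e-05, higher in 5 of 5 wells). Vim was higher by 0.66 ± 0.11 in 5 of 5 wells (adjusted p = 0.00023), although the well ranges, 697 to 1596 and 456 to 848 CPM, overlapped. Anxa2, the partner of S100A10, fell by 0.66 ± 0.16 (adjusted p = 0.0123, lower in 5 of 5 wells), and that call was lost without IL-27 well 2 (0.0912), without IL-27 well 3 (0.0581), without the well as a block (0.189), at 1000 UMIs per cell (0.938) and by DESeq2 (0.333, at -0.67). Lgals1, Lgals3, Lgals7, S100a4, S100a6 and S100a11 were not called, with differences from -0.27 to 0.05 on the log2 scale and standard errors of 0.09 to 0.32. S100a11 crossed the threshold without TMM scaling (-0.30, adjusted p = 0.0457, edgeR). The 2 gates are unlike: the regulatory T gate holds resting cells, while the effector CD4 T gate chose cells by activation. Effector regulatory T cells alone were not tested against effector CD4 T cells. Of 29 partner genes tested, 5 rose in regulatory T cells: Capg, an actin-capping protein (log2 1.02 ± 0.11), Itgb7, Tmsb10, Klf2 and S1pr1. The 4 that fell were Itgb1 (by 0.98 ± 0.21, adjusted p = 0.00389, edgeR), Itgal, Ptprc and Havcr2. Of 9 related family genes tested, Lgals3bp fell.

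Within regulatory T cells, a resting gate (at least 2 UMIs of naive-state genes that include Ccr7 and Lef1 and no effector gene) took 61 cells and an effector gate 289 cells. The planned comparison needed 20 cells of each in a well and could not be fitted; with wells of at least 10 cells, a choice made after the cell counts were seen, 4 wells entered. Then 6 of 6 tested genes were higher in effector regulatory T cells, with 5.3% of 1792 genes called higher. Resting cells of the 4 wells held 6 UMIs of S100a4, 11 of S100a6 and 16 of S100a11, against 290, 338 and 425 in effector cells. These 3 genes passed the filter on low counts largely through the effector cells. Their calls and the count of higher genes are therefore descriptions and not evidence. S100a11 rose by 2.80 ± 0.34 on the log2 scale, from a mean of 70.7 ± 58.0 CPM to 599.9 ± 46.9 (SD, n = 4 wells). S100a10 rose from 559 ± 178 to 1714 ± 217 CPM and Vim from 483 ± 85.2 to 1070.1 ± 309.8 (SD, n = 4 wells). Lgals3 had 0 UMIs in resting and 17 in effector cells, at least 1.65-fold higher against 3 UMIs.

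CD8 T cells shared part of this order. Only IL-27 wells 1 and 2 had 20 naive and 20 effector CD8 T cells, and there S100a6 was called of 6 genes tested, with 1.84% of 2603 genes called higher. It was at 319 and 1107 CPM in effector cells against 6.56 and 4.57 in naive cells. With 4 wells of at least 10 cells, S100a6 (log2 7.36 ± 0.33), S100a4 (4.42 ± 0.89) and S100a11 (1.56 ± 0.30) were called of 8 tested, against 2.28% of 2896 genes. The adjusted p of S100a11 was 0.0036 (edgeR). Over all wells, a UMI of S100a6 and S100a4 was seen in 1.96% and 0.49% of the 204 naive CD8 T cells. Both genes entered the tests through the effector cells, so their calls and the counts of called genes are not evidence. S100a4 was at 0 in effector CD8 T cells of IL-27 well 1 and at 183, 246 and 218 CPM in the other 3 wells.

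S100a10 was not called in CD8 T cells. Naive levels were 485, 393, 583 and 440.2 CPM and effector levels 338, 352, 433 and 299.8 in IL-27 wells 1 to 3 and PBS well 1, lower in 4 of 4 wells (log2 -0.39 ± 0.16, adjusted p = 0.263). The difference between the lineages was itself tested, after the values were seen, and the effector-over-naive change of S100a10 was 1.51 ± 0.19 log2 units smaller in CD8 than in CD4 T cells (difference -1.51, adjusted p = 2.2e-05, edgeR). It kept its call without each well in turn, from -1.64 to -1.43, where 3.33% of 4558 genes were called. PBS well 2, with 5 naive CD8 T cells, was in neither fit, and its 183 effector CD8 T cells had 784 CPM. Anxa2 differed between the lineages by -1.75 ± 0.51 and missed the threshold (adjusted p = 0.0547).

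**Figure D3:**
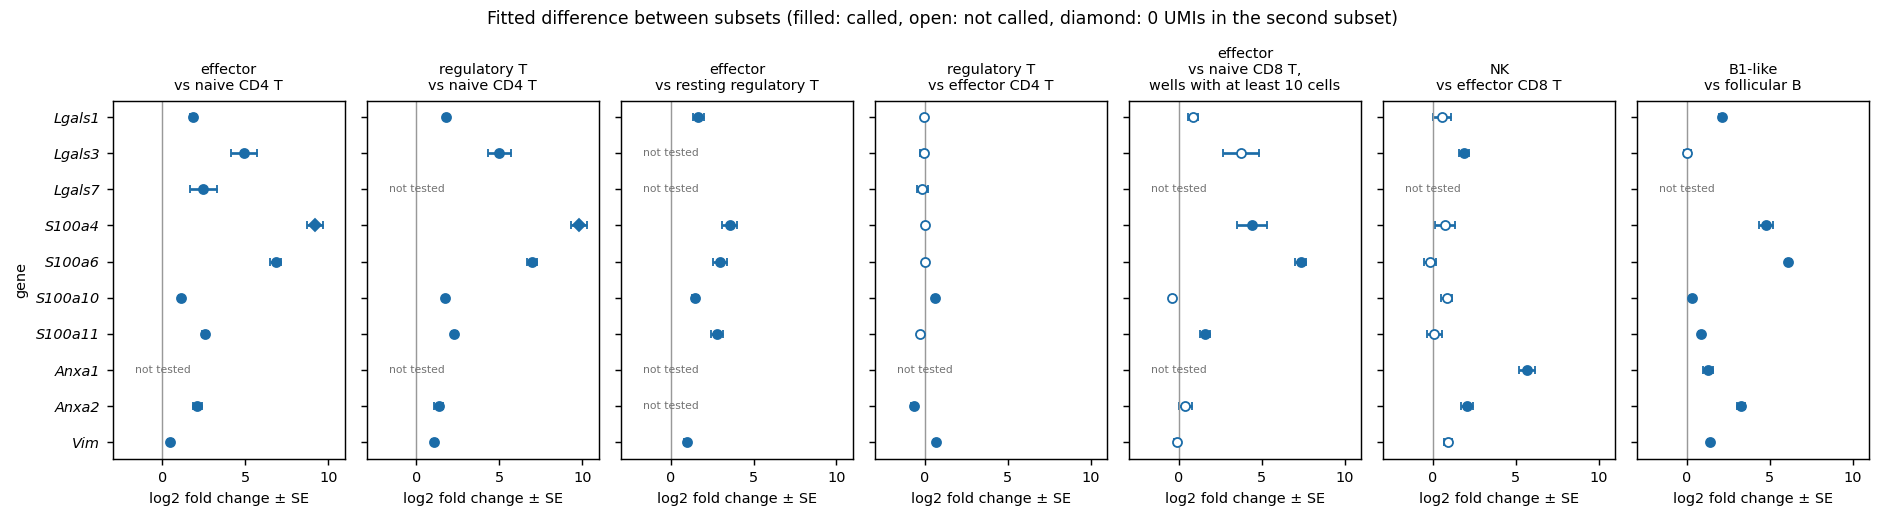
Fitted log2 fold change ± SE of each gene (rows) in 7 comparisons of subsets (panels), filled where the adjusted p was under 0.05 and as a diamond where the second subset held 0 UMIs, so that the fitted value depends on the prior count. All tested genes are filled and right of 0 in the panels of effector against naive CD4 T, regulatory against naive CD4 T and effector against resting regulatory T cells, while regulatory against effector CD4 T cells gave 3 filled points between -0.66 and 0.66.

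Natural killer cells were compared with effector CD8 T cells in the 3 wells that had 20 of each. Anxa1, Anxa2 and Lgals3 were called higher of 9 genes tested, with 3.2% of 3465 genes called higher. Anxa1 was at 206, 134, 249, 152 and 162 CPM in NK cells of the 5 wells and at 0, 0, 0, 0 and 3.66 in effector CD8 T cells. All NK wells lay above all CD8 wells, and the pooled ratio over the 3 wells was 61.2 (interval 20.6 to 300.3). Anxa1 entered the test only through the NK cells, so its call and its part in the count are not evidence. Anxa2 was at 573 to 706 CPM in the NK wells, against 57.4 to 294 in CD8 wells, and rose by 2.05 ± 0.37 (adjusted p = 0.0186; 0.0614 without IL-27 well 2 and 0.0894 at 1000 UMIs per cell). Lgals3, at 202 to 602 CPM against 25.5 to 168, rose by 1.87 ± 0.29 (adjusted p = 0.00904; 0.0652 without PBS well 2 and 0.119 without the well as a block).

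Lgals1, in contrast, was even across the NK wells, at 1427, 1557, 1528, 1467 and 1369 CPM (1469.7 ± 75.5, SD, n = 5), while effector CD8 T cells ran from 299.7 to 2670.4. The 2 groups overlapped and the gene was not called (log2 0.56 ± 0.53, adjusted p = 0.651). S100a10, S100a4, S100a6, S100a11 and Vim were not called either; with wells of at least 10 cells, S100a10 and Vim were (adjusted p = 0.0117 and 0.00645). Lgals7 had 0 UMIs in 386 NK cells, which allows up to 2.49 CPM (3 UMIs). Of 29 partner genes tested, 4 were higher in NK cells. They were Ahnak (1.70 ± 0.25), Tagln2 (1.30 ± 0.27), Cd7 and Flna (adjusted p = 0.00623 and 0.0323 for the first 2, edgeR). Havcr2 was lower, where 81 of 3465 genes were called lower. Of 6 related family genes tested, Lgals3bp was higher.

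In B cells the comparison was between 2 mature subsets. B1-like cells, gated on Bhlhe41, Zbtb32 or Fcrl5 without Fcer2a, were compared with follicular B cells, gated on Fcer2a, over all 5 wells. Of 9 genes tested, 8 were higher in B1-like cells, with 11.6% of 10413 genes called higher. S100a6 stood out in size, at 890.3, 1075, 646, 638 and 842 CPM against 15.8, 16.4, 4.84, 8.22 and 24.4, a ratio of 62.7 (interval 56.4 to 69.9, adjusted p = 1.72e-23). The lowest B1-like well was 638 CPM and the highest follicular well 24.4. S100a4 was 22.6-fold higher (interval 16.2 to 31.6) from 2.05 ± 2.12 to 46.9 ± 7.80 CPM, Anxa2 8.68-fold (7.02 to 10.7) and Lgals1 4.21-fold (3.59 to 4.93; SD, n = 5 wells).

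Vim was higher by 1.37 ± 0.08 and S100a11 by 0.82 ± 0.11 in B1-like cells, and Anxa1 by 1.28 ± 0.29 (adjusted p = 9.61e-15, 3.95e-07 and 0.00113). The Anxa1 call was lost with stricter cell filters (0.0552) and at 1000 UMIs per cell (0.0559). S100a10, at 237 to 374 against 224 to 319 CPM, was called with a small difference (0.28 ± 0.08, adjusted p = 0.0117) that was lost without TMM scaling (0.305), with stricter cell filters (0.139), at 1000 UMIs per cell (0.756) and without IL-27 well 3 (0.0542). Lgals3 was at 33.5 ± 19.3 CPM in B1-like and 39.9 ± 4.84 in follicular B cells (SD, n = 5 wells), and its sign depended on the setting (log2 0.02 ± 0.20, adjusted p = 0.958). Of the 11 related family genes tested, S100a13, S100a1, Anxa6 and Lgals3bp rose and Lgals9 fell by 0.81 ± 0.16, and of 31 partners 13 rose and 3 fell (9.88% of all genes were called lower), Ahnak (3.20 ± 0.17) and Itgb1 (3.15 ± 0.14) with the largest differences. Germinal centre B cells, 54 in all, could not be tested because only IL-27 well 3 had 20 of them; pooled, their Anxa2 was at 229.8 CPM (interval 190.2 to 275) and their S100a10 at 29.2 (16.4 to 48.2), against 8.13 and 278 in follicular B cells.

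Myeloid cells were few, and their levels are given as descriptions with counting intervals only. Neutrophils (64 cells) had S100a6 at 4257 CPM (3928 to 4606) and S100a11 at 2845 (2577 to 3133), with S100a6 between 3531 and 5698 in the 5 wells. Anxa2 was at 1267 CPM, Lgals3 at 1192 and Anxa1 at 572 there. The 39 macrophages or monocytes had Vim at 3447 CPM (3209.8 to 3697), Lgals3 at 1796 (1626 to 1979) and S100a4 at 938 (816 to 1072). Galectin-3 is a classical macrophage product. Conventional dendritic cells, 35 in all, had S100a11 at 1208 CPM and Vim at 2552. Lgals7 had 0 UMIs in each of these gates.

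Plasmacytoid dendritic cells (133) differed from those in combination: Lgals1 was at 1240.0 CPM (1169 to 1314), with 908 to 1470.5 in the 5 wells, and S100a6 at 701, while S100a4 was at 6.50 (2.38 to 14.1) and Anxa1 at 2.17 (0.262 to 7.82). Mast cells, 79 of 86 from PBS well 2, had Vim at 1105 CPM (973 to 1249) and Lgals3 at 288, with S100a6 at 21.8 (7.09 to 50.9). S100a4 gave 1 UMI in mast cells.

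Ordered by the mean of wells over the 14 subsets with at least 50 cells, of which neutrophils, mast, resting regulatory and germinal centre cells rest on 1 well each, the genes peaked in different places. Lgals1 was highest in NK cells (1469.7 ± 75.5 CPM), followed by effector CD8 T (1205 ± 1281, n = 3), plasmacytoid dendritic (1189.5 ± 397, n = 2), effector CD4 T (1106 ± 560.1) and regulatory T cells (1065 ± 521; SD, n = 5 where not given), and neighbours in that order overlapped. S100a10 was highest in effector regulatory T cells (1670.3 ± 212 CPM), then all regulatory T cells, which contain them (1413 ± 218), and NK cells (959 ± 99.4), and the last 2 did not overlap (SD, n = 5 wells). S100a4 was also highest in effector regulatory T cells (457 ± 148), and Lgals7 was highest there on average (73.0 ± 119) with wells from 0 to 284 CPM. Neutrophils came first for Lgals3, S100a6, S100a11, Anxa1, Anxa2 and Vim. Below them NK cells were next for Anxa1 (181 ± 46.6) and stood apart from B1-like cells (21.7 ± 6.88, SD, n = 5). Macrophages or monocytes and conventional dendritic cells, with under 50 cells each, were not in this order. Their pooled Vim lay above the neutrophil level of this order. Macrophages or monocytes also had more pooled Lgals3 than neutrophils and more pooled S100a4 than the effector regulatory T level given here.

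Over the same 14 subsets, the pairs that varied most alike were S100a6 with S100a11 (Pearson r = 0.88 of log2 CPM + 10), S100a4 with S100a6 (0.83) and S100a4 with S100a11 (0.81), while Lgals7 with Anxa1 gave -0.21. Among 3288 other genes, the closest to each were Itgam for Anxa1 (0.95), Eif2s3y for Lgals3 (0.93), Tnfsf11 for Lgals7 (0.93), Hcfc1r1 for S100a11 (0.92), Glrx for S100a4 (0.895), Nfkbia for S100a10 (0.89), Akt1 for Anxa2 (0.89), Cpd for Vim (0.88), Bsg for Lgals1 (0.87) and Cyth4 for S100a6 (0.87). Eif2s3y is Y-linked and read only in PBS well 2, the sole well behind the neutrophil and mast values. The subsets share wells and libraries, regulatory T cells enter with their own parts, and these values are descriptions.

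IL-27 and PBS were then compared within the 6 subsets that had 20 cells in every well. The comparison has 1 library per group and its ratios carry counting intervals only; the test over wells stands beside it. Of 55 gene and subset pairs with at least 20 UMIs, PBS well 2 was the highest of the 5 wells in 43. It was highest for 9 of 10 genes in effector CD4 T cells and 9 of 9 in regulatory T cells, against 30.9% of 5521 and 33.6% of 6850 genes. In effector regulatory T, NK, follicular B and B1-like cells PBS well 2 was highest for 8, 5, 7 and 5 of 9 genes. The share of all genes there was 23.0%, 17.7%, 21.9% and 25.3%. Every IL-27 well was below both PBS wells in 12 pairs and above both in 0, and in 43 the ranges overlapped. The 12 pairs were 2 of 10 genes in effector CD4 T and 3 of 9 in regulatory T cells. Effector regulatory T, NK, follicular B and B1-like cells gave 4, 2, 0 and 1 of 9. The share of all genes with every IL-27 well below both PBS wells was 10.6% in effector CD4 T, 11.7% in regulatory T, 11.4% in effector regulatory T, 8.87% in NK, 8.09% in follicular B and 12.4% in B1-like cells. PBS well 2 held Y-linked UMIs, and PBS well 1 and the IL-27 wells held 0, so within PBS sex and well cannot be told apart. A comparison with PBS well 1 alone is between wells without Y-linked UMIs, with 1 well on the PBS side.

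In effector CD4 T cells, Lgals1 was at 623, 945 and 1389 CPM with IL-27, and PBS wells 1 and 2 had 634 and 1938. The IL-27 wells overlapped PBS well 1, and the library ratio of 0.758 (interval 0.689 to 0.835) changed sign against PBS well 1 alone (log2 0.64 for the mean of the IL-27 wells). S100a6 did the same, with 257, 443 and 473 against 205 and 1221 CPM. S100a4, at 187, 207 and 274 against 281 and 587, and Lgals7, at 0, 2.84 and 33.6 against 72.2 and 159, were below both PBS wells. Their ratios were 0.51 (0.425 to 0.612) and 0.107 (0.0551 to 0.192). Over wells neither passed the test (adjusted p = 0.546 and 0.274), and 0.0% of 5521 genes did. The median over the 10 genes was -0.40 on the log2 scale, beside -0.01 over all genes tested, and 0.44 without PBS well 2.

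In regulatory T cells, Lgals3 was at 22.5, 40.8 and 31.3 CPM in the IL-27 wells and at 57.7 and 119 in the PBS wells, a ratio of 0.364 (0.255 to 0.518) with no overlap and an adjusted p of 0.107 (edgeR). Anxa2, at 59.97, 40.8 and 70.5 against 89.8 and 134, and S100a10, at 1121, 1250.2 and 1494 against 1571 and 1630, were also below both PBS wells. The difference of S100a10 was small (ratio 0.814, interval 0.762 to 0.87), with the mean of the IL-27 wells at -0.29 on the log2 scale against PBS well 1 and -0.34 against PBS well 2. No gene of the 9 tested passed the test, of 0.307% called lower among 6850, and DESeq2 called 0. The median over 9 genes was -0.65, and -0.09 without PBS well 2. Summed gastric epithelial markers were at 377 CPM in regulatory T cells of PBS well 2 against 32.6 to 81.2 in the other wells, with 9 of 11 detected in PBS well 2 and Atp4b and Cldn18 at 0 in every well. Dissociation stress genes were at 1127 against 688 to 774 CPM. The regulatory T gate also differed in makeup. Effector regulatory T cells were 63 of its 97 cells in PBS well 2 and 46 of 129 in PBS well 1. They were 61 of 189, 41 of 132 and 78 of 191 in IL-27 wells 1 to 3. Resting cells were 2 in PBS well 2 and 11 to 20 in the other wells. The part of these markers and of this makeup in the result was not tested.

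NK cells gave the 3 calls of the 51 tests made over wells. S100a6 was at 791, 778 and 759 CPM in the IL-27 wells and at 1041 and 1865 in the PBS wells, groups that did not overlap (ratio 0.472, interval 0.418 to 0.532). It was lower by edgeR (log2 -0.95 ± 0.17, adjusted p = 0.0016), and not by DESeq2 (0.11). Lgals3 (252, 202 and 301 against 294 and 602) and S100a4 (201, 162 and 301 against 279 and 503) overlapped PBS well 1 and were called as well (log2 -0.96 ± 0.23 and -0.97 ± 0.24, adjusted p = 0.0327 and 0.0338). The background was 0.527% of 3415 genes called lower. Without PBS well 2 the adjusted p of S100a6, Lgals3 and S100a4 was 0.92, 0.993 and 0.993, and without IL-27 well 1 or 2 Lgals3 and S100a4 were not called (0.189 to 0.39), nor was Lgals3 without IL-27 well 3 (0.0857). Lgals1, S100a10 and Anxa1 had ratios of 1.08 (0.975 to 1.19), 1.14 (1.01 to 1.28) and 1.17 (0.877 to 1.56) and were not called. For Lgals1 the log2 change in NK cells exceeded that in regulatory T cells by 0.80 ± 0.19 (adjusted p = 0.0128, edgeR, where 0.314% of 7007 genes were called), a test added after the values were seen, and the difference was 0.15 (adjusted p = 1.0) without PBS well 2. Stress genes in NK cells were at 1008 CPM in PBS well 2 and 532 to 888.5 elsewhere, and myeloid genes Lyz2, Csf1r and C1qb were at 0 by the gate.

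In effector regulatory T cells 7 genes were tested and none was called by edgeR, of 0.121% of 3306 genes, and DESeq2 called 0. Lgals7 was at 0, 29.5 and 7.11 CPM with IL-27 and at 44.0 and 284 with PBS, from 6 and 68 UMIs, and was too sparse for the test. S100a11 was also below both PBS wells but nearly even, at 621, 531 and 615 against 633 and 645 CPM. In all, 4 of 9 genes were below both PBS wells, where 11.4% of all genes were. The median over the 9 genes was -0.81 on the log2 scale, beside -0.04 over all genes tested, and -0.26 without PBS well 2.

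In follicular and B1-like B cells the ranges of wells overlapped for all pairs but 1. In follicular B cells S100a10 was at 292.5, 224 and 283 CPM with IL-27 and 269.7 and 319 with PBS (ratio 0.911, interval 0.873 to 0.95), and Vim had a ratio of 0.967 (0.931 to 1.01). Lgals1 had the PBS well 2 pattern again, at 19.0, 16.8 and 20.5 against 18.3 and 45.5 CPM. In B1-like cells S100a6 was at 890.3, 1075 and 646 with IL-27 against 638 and 842 (ratio 1.11, interval 1.01 to 1.23, adjusted p = 0.93), and Anxa2 was below both PBS wells, at 73.3, 59.7 and 40.9 against 84.2 and 92.3 (adjusted p = 0.901). None of the 8 genes tested in follicular or the 9 in B1-like cells was called by edgeR (background 0.0289% and 0.208% of genes) or by DESeq2.

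**Figure D4:**
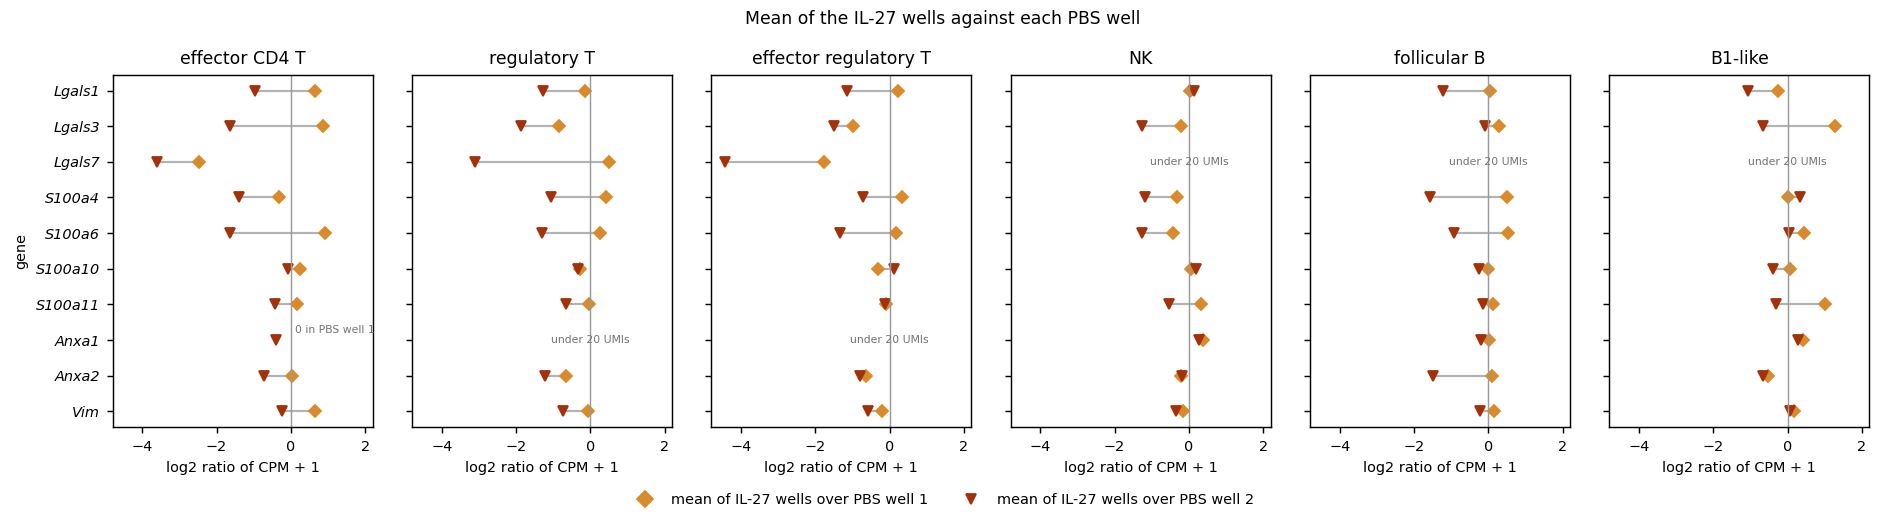
Log2 ratio of CPM + 1, the mean of the 3 IL-27 wells over PBS well 1 (diamonds) and over PBS well 2 (triangles) for each gene (rows) in 6 subsets (panels), joined by a line. In effector CD4 T cells most lines cross 0, as for Lgals1 from 0.64 to -0.97, while Lgals3 and Anxa2 in regulatory T cells and S100a6 in NK cells lie left of 0 against both wells.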

How the data were processed

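Unique molecule counts (UMIs) per gene and cell were deposited by the authors for CD45+ gastric cells, 1 matrix per treatment. The submitters' processing notes name Cell Ranger 3.0.0 and mm10, the matrix headers carry software version 3.1.0, and filters by the authors are not given in the sources used here. The libraries held 80121995 and 43501501 UMIs (IL-27 and PBS).

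Cells with at least 200 genes and at most 10% mitochondrial UMIs were kept, and Scrublet (scanpy 1.11.5) was run per well. It marked 1.58% to 4.17% of cells in 4 wells, which were removed, and 0.0183% in PBS well 2, where the call was taken as not having worked and doublets remain. Cells meeting 2 gates (27) were left out. A further gene of the naive and resting gates is not reported here. UMIs were summed per well and subset. Subsets were compared with edgeR 4.0.16 (quasi-likelihood, TMM, low-count filter, well as a block because both subsets of a well come from 1 suspension) in wells with at least 20 cells of each, with Benjamini-Hochberg adjustment over all genes tested and calls at 0.05; DESeq2 1.42.0 was an alternative. Ratios of pooled UMIs carry exact conditional intervals, and CPM exact Poisson intervals, both 95% and for counting error only. IL-27 was compared with PBS as 1 library each, with the wells beside it; log2 ratios add 1 CPM. The tests were checked on simulated data.

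The 10 genes and the lists of related genes were chosen with earlier results of these data known. The 10 genes are described in every subset. From the lists, only genes called or at the ends of a list were named, and not all of these. For each of the 10, the gene of highest Pearson r over subsets was named. Coordinates are those of GENCODE M21 (30934 of 31053 gene IDs matched). Promoters were matched for 8 of the 10 genes in RefSeq.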

Additional observations from a re-analysis of the deposited data

Results flagged for a closer look

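The effector-over-naive change of S100a10 differed between lineages by a direct test over 4 wells with at least 10 cells of each subset. CD8 T minus CD4 T gave -1.51 ± 0.19 on the log2 scale (edgeR, adjusted p = 2.2e-05), with naive CD8 T above effector CD8 T cells in 4 of 4 wells and effector CD4 T above naive CD4 T cells in 4 of 4. It was called without each of these wells, with adjusted p from 1.74e-05 to 0.00099.

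The IL-27 over PBS change of Lgals1 differed between NK and regulatory T cells, NK minus regulatory T giving 0.80 ± 0.19 (edgeR, adjusted p = 0.0128, 5 wells), where 0.314% of 7007 genes were called. NK levels were 1427, 1557, 1528, 1467 and 1369 CPM and regulatory T levels 633, 927, 896, 896 and 1973 in IL-27 wells 1 to 3 and PBS wells 1 and 2. The call was lost without IL-27 well 1 (0.63, adjusted p = 0.684), IL-27 well 2 (0.88, 0.105), IL-27 well 3 (0.86, 0.348) or PBS well 2 (0.15, 1.0), and remained without PBS well 1 (1.33, 1.2e-08).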

How the results depend on the processing

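The well as a block is part of each subset comparison; with no replicate block the Anxa2 call between regulatory and effector CD4 T cells (adjusted p = 0.189) and the Lgals3 call between NK and effector CD8 T cells (0.119) were lost, while S100a4 (-0.00321) and S100a6 (-0.066) in the former and S100a11 (-0.32) in the latter changed sign without being called. Genes called went from 9 to 5 of the 6 testable in effector against naive CD4 T cells at 1000 UMIs per cell, from 1 to 3 in CD8 T cells without a filter on low counts or with wells of at least 10 cells, and from 3 to 5 in NK against effector CD8 T cells with wells of at least 10 cells. The calls of regulatory against naive CD4 T cells held wherever the gene was tested; at 1000 UMIs per cell 6 of the 8 genes were tested, without Lgals3 and Anxa2, and with no replicate block 7, without Lgals3.

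The other changes of sign were in uncalled genes. Vim in CD8 T cells was 0.058 with 1 UMI of another lineage allowed. Between regulatory and effector CD4 T cells, Lgals1 was 0.00608 without a filter and 0.042 with 1 UMI of another lineage allowed, and S100a4 -0.00629 without TMM and -0.030 with stricter cell filters. Leaving out 1 well, Lgals1 ran from -0.13 to 0.14, Lgals3 from -0.28 to 0.071, Lgals7 from -0.39 to 0.30, S100a4 from -0.086 to 0.13 and S100a6 from -0.060 to 0.15. Between NK and effector CD8 T cells, S100a6 was 0.084 without TMM, and S100a11 -0.35 at 1000 UMIs per cell, -0.091 with 1 UMI of another lineage allowed and -0.075 with wells of at least 10 cells. Leaving out 1 well, Lgals1 ran from -0.087 to 1.39, S100a6 from -0.66 to 0.13 and S100a11 from -0.46 to 0.87. Lgals3 in B1-like against follicular B cells was -0.045 by DESeq2, -0.00867 without a filter, -0.13 without TMM, -0.037 with stricter cell filters, -0.47 at 1000 UMIs per cell and -0.015 with 1 UMI of another lineage allowed, and -0.15 to 0.17 when 1 well was left out.

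For IL-27 against PBS the 3 calls became 0 by DESeq2, 15 without a filter, 1 without TMM, 1 at 1000 UMIs per cell and 0 against PBS well 1 alone, and 0 to 21 when 1 well was left out, 0 without PBS well 2 and 21 without PBS well 1. Against PBS well 1 alone the median log2 ratios were 0.44 in effector CD4 T, -0.085 in regulatory T, -0.26 in effector regulatory T, -0.19 in NK, 0.12 in follicular B and 0.16 in B1-like cells. Leaving out 1 well gave -0.85 to 0.44, -1.18 to -0.085, -0.86 to -0.26, -0.39 to -0.19, -0.26 to 0.12 and -0.35 to 0.16 in the same order. Without TMM the share of called genes that were higher moved from 48.6% to 70.0% in effector against naive CD4 T (median of all genes 0.16), from 54.1% to 69.2% in regulatory against naive CD4 T (0.11), from 56.5% to 67.7% in CD8 T (-0.03), from 57.8% to 77.1% in NK against effector CD8 T (0.24) and from 53.9% to 33.1% in B1-like against follicular B cells (-0.20). Genes called over all alternatives ran from 314 to 914 (759 in the reported fit) for effector against naive CD4 T, 8 to 117 (85) for CD8 T, 401 to 1182 (993) for regulatory against naive CD4 T, 131 to 574 (400) for regulatory against effector CD4 T, 59 to 638 (192) for NK, 605 to 2700 (2232) for B cells and 4 to 683 (61) for IL-27 against PBS. DESeq2 called fewer genes in all than edgeR where both were run, 382 against 759 for effector against naive CD4 T and 142 against 400 for regulatory against effector CD4 T, so a call lost by DESeq2 is not by itself a smaller difference. The cause was not tested. Germinal centre against follicular B cells and its alternatives were not run, since only IL-27 well 3 had 20 such cells. Depth limits genes with few UMIs, such as Anxa1 in T cells and Lgals7.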

Other observations

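Plasma cells (33) and mature dendritic cells were too few for the order of levels, and they are given as pooled values. Plasma cells had Anxa2 at 188 CPM, S100a10 at 255 and S100a6 at 56.1, beside 8.13, 278 and 13.4 in follicular B cells. Anxa1 and Lgals7 had 0 UMIs in plasma cells.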
